A study of Homo sapiens with 25 samples.

Results

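A549, an established line of human lung adenocarcinoma, was transfected with ASO5, one of a pair of antisense oligonucleotides (ASOs) against the long noncoding RNA labelled candidate 42 (CHiLL1). The 3 libraries of ASO5 (replicates 3, 4 and 5) were compared with the 3 libraries of the control ASO (Qiagen neutral Control A, replicates 3, 4 and 5), so the comparison holds 6 of the 25 RNA sequencing libraries of the series. All cells received 25 nM of an ASO and were collected after 24 h, so the controls carry an oligonucleotide too, and no untransfected cells were analysed here. The other A549 groups, with 3 libraries each, received ASO3 against candidate 42, or ASO1 or ASO3 against candidate 240, a second long noncoding RNA. NCI-H460, another non-small cell lung cancer line, received the same ASOs with 2 libraries per group. Each A549 group comes from 1 cell line, and the labels do not say whether its libraries come from separate cultures, and p-values therefore measure the spread among these libraries and nothing wider.

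An antisense oligonucleotide pairs with the RNA whose sequence it complements, and designs that carry a stretch of DNA lead the enzyme RNase H to cut that RNA in the nucleus, introns included. Other RNAs that hold a similar stretch can be bound as well, which is why studies of this kind use more than 1 oligonucleotide per target. Sterol synthesis, which enters the results below, is controlled by the SREBP transcription factors, which move from the endoplasmic reticulum to the nucleus when membrane cholesterol is low and raise the enzymes from acetyl-CoA to cholesterol as a group.

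Values were deposited as TPM, a level per gene that is normalised for transcript length and for the library's total, and that had been rescaled between libraries. The sums over all genes ran from 947369 to 1066349 in the 6 libraries, with 25132 to 26849 gene names above 0 and 6.48% to 9.98% of the total in genes of the mitochondrial genome. The number of reads cannot be read from TPM, so the depth is unknown. Over the 15 A549 libraries, the first principal component took 24.6% of the variance, and the library numbered 3 had the lowest score of each group. All 13 markers of the A549 line were present at a mean of 1 TPM or more, and their summed level was 25500 to 30500 TPM in the controls and 25600 to 25900 TPM with ASO5. The leukocyte markers PTPRC and CD3E, the alveolar type 2 marker SFTPA1 and the basal keratin KRT14 were listed at 0. Other members of the same marker lists were present. Control means were 23.3 TPM for CD68 and 15.1 TPM for CD14 (leukocyte) and 13.7 TPM for ABCA3 (alveolar type 2). They were 5.22 TPM for SOX2 and 3.93 TPM for KRT15 (squamous). Summed fibroblast markers (9 genes, 3 of them at 1 TPM or more) ran from 31.4 to 37.3 TPM in the controls and from 42.4 to 49.2 TPM with ASO5. Most of this sum was ACTA2, smooth muscle actin, at 21.6, 19.1 and 19.6 TPM in the controls and 29.4, 30.4 and 28.3 TPM with ASO5. ACTA2 was called higher, but leaving out any single one of 5 of the 6 libraries ended the call. COL1A1 and THY1 overlapped between the groups. Alveolar type 2 markers ran from 15.2 to 17.8 and from 18.8 to 20.4 TPM, endothelial markers from 3.03 to 3.38 and from 3.88 to 4.30 TPM, squamous markers from 8.06 to 12.9 and from 5.50 to 7.61 TPM, and leukocyte markers from 38.0 to 43.4 and from 39.0 to 48.3 TPM. Within the leukocyte sum CD68 and CD14 moved in opposite directions, to means of 31.7 and 8.99 TPM with ASO5. Their log2 fold changes were 0.43 and -0.77, and neither was called (limma, adjusted p = 0.0533 and 0.0748). The authors' own q-values for them were 0.0371 and 0.0359. The part of these markers in the results was not tested.

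Candidate 42 is here taken to be AC107959.3, an antisense gene of chromosome 8 (minus strand, 23071377 to 23074488 on hg38). This identity comes from what is known of the study and not from the labels. AC107959.3 stood at 7.13, 5.12 and 10.6 TPM in the controls and at 4.81, 2.80 and 2.66 TPM with ASO5. Every ASO5 library lay below every control, at 45.0% of the control mean. The log2 fold change was -1.03 ± 0.37 (SE) and was not called (limma, adjusted p = 0.166). With ASO3 the mean level was 0.650 ± 0.583 TPM (SD, n = 3), and the difference between the ASOs was past the threshold (ASO5 minus ASO3 1.89 on the log2 scale, limma, adjusted p = 0.00535). With candidate 240 ASO3, aimed at another RNA, the mean was 14.4 ± 1.49 TPM (log2 fold change 0.93, limma, adjusted p = 0.123). With candidate 240 ASO1 it was 6.14 ± 1.09 TPM (log2 fold change -0.24). In NCI-H460, ASO5 left AC107959.3 at 1.88 and 1.46 TPM, against 1.16 and 2.33 TPM in the controls, and there the groups overlapped. Whether the counting used strand is not stated in the sources used here, and reads of a transcript on the other strand cannot be told apart from those of this gene.

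ASO5 lowered more genes than it raised. Testing covered the 14740 genes whose mean over the A549 libraries was 1 TPM or more, of which 563 (3.82%) were called at an adjusted p under 0.05 in limma's moderated test on log2(TPM + 0.5), a scale that understates the change of genes at low levels. Of these, 209 (1.42%) were higher and 354 (2.4%) were lower than control. The calls of each gene list below are to be read beside these shares of all tested genes, 3.82% called, 1.42% higher and 2.4% lower. The lowered genes had a median log2 fold change of -0.79, with 91 at -1 or below, and the raised genes had a median of 0.68, with 39 at 1 or above. The median over all tested genes was 0.02. In bulk RNA, fewer cells expressing a gene and less RNA per cell cannot be told apart. Without regard to the test, 1709 genes (11.6%) had all 3 ASO5 libraries above all 3 controls and 1562 (10.6%) had them below. Every one of the 209 raised and 354 lowered genes was separated in this way. The separation described for called genes below therefore adds no support to a call.

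**Figure D1:**
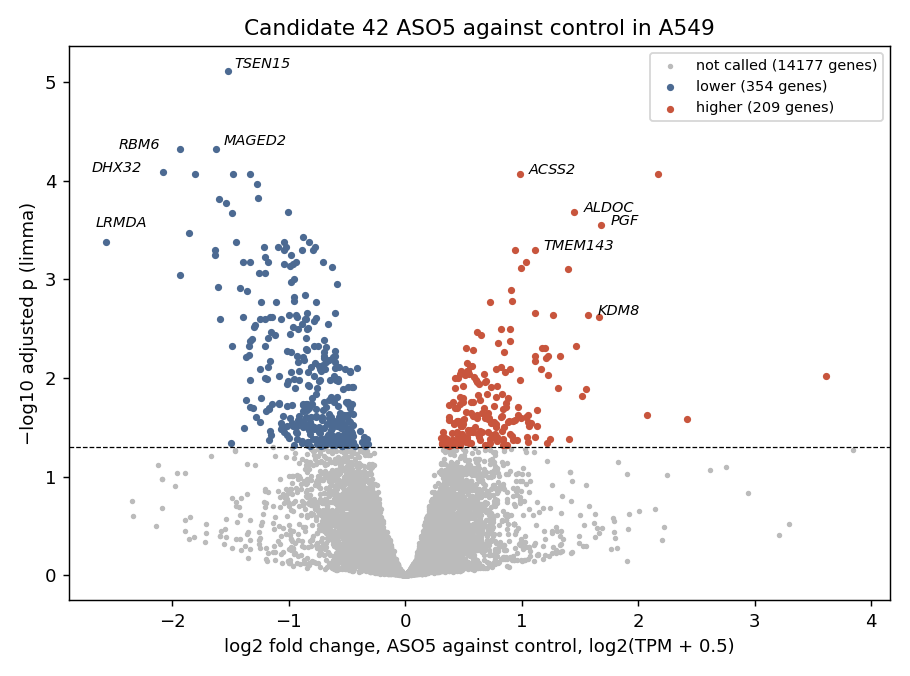
Log2 fold change (x axis, log2(TPM + 0.5) scale) of each tested gene with ASO5 against control in A549, and -log10 of its limma adjusted p (y axis), with the dashed line at 0.05. The 354 lowered genes (blue) reach smaller adjusted p-values than the 209 raised ones (red), with TSEN15 at the top.

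The count rested on all of the libraries. It fell to 326, 207 and 243 without ASO5 replicates 3, 4 and 5, and to 449, 308 and 305 without control replicates 3, 4 and 5. A group of 175 genes (46 higher, 129 lower) was called whichever 1 of the 6 libraries was left out, and 103 of them (21 higher, 82 lower) were also called when the 6 libraries were fitted alone. Genes described below as holding throughout belong to these 103.

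Most of the leading falls were in genes of varied function whose ASO3 values were near control. TSEN15, a subunit of the endonuclease that splices tRNAs (chromosome 1, 184051651 to 184123978), had the smallest adjusted p of all genes. Its level was 29.9, 31.4 and 32.6 TPM in the controls and 11.4, 9.71 and 10.6 TPM with ASO5. The groups were far apart, and the log2 fold change was -1.53 ± 0.10 (SE, limma, adjusted p = 7.68e-06), beside -0.09 with ASO3 and -0.04 with candidate 240 ASO3.

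DHX32, a DEAH-box RNA helicase (chromosome 10, 125836337 to 125896436), had the second largest fall among called genes with a mean level of 5 TPM or more, with genes named as small RNAs left out. It went from 35.1, 50.9 and 46.5 TPM to 11.95, 8.97 and 9.22 TPM, which is 22.8% of the control mean. No ASO5 library came near a control, and the log2 fold change was -2.08 ± 0.18 (limma, adjusted p = 8.15e-05). BCCIP, on the opposite strand and overlapping DHX32 by 17359 bp, was not called (log2 fold change 0.18, limma, adjusted p = 0.514). Of the 25 DEAD-box and DEAH-box helicases tested, DHX32 was the only one called in either direction, beside 3.82% of all tested genes.

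RBM6, an RNA-binding protein with roles in splicing (chromosome 3, 49940007 to 50100045), was at 15.3, 15.4 and 15.3 TPM in the controls and at 4.58, 2.60 and 4.002 TPM with ASO5. The controls agreed to within 0.0561 TPM (SD, n = 3), and the log2 fold change was -1.93 ± 0.16 (limma, adjusted p = 4.69e-05). REPS1, an adaptor protein of endocytosis, went from 14.3, 17.2 and 17.6 TPM to 5.86, 3.17 and 4.23 TPM. All 3 ASO5 libraries lay below all controls, with a log2 fold change of -1.81 (limma, adjusted p = 8.44e-05), against 0.28 with ASO3.

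MAGED2, a MAGE family protein encoded on the X chromosome (54807599 to 54816015), is a short gene among the leading losses, with a span of 8271 bp. Its level was 69.4, 59.2 and 66.7 TPM in the controls and 25.2, 18.6 and 19.0 TPM with ASO5. The ASO5 libraries stood at 32.2% of the control mean, and the log2 fold change was -1.62 ± 0.13 (limma, adjusted p = 4.69e-05), against 0.34 with ASO3. PTPN12, a protein tyrosine phosphatase that acts on focal adhesion proteins, went from 34.1, 43.9 and 59.5 TPM to 14.8, 12.4 and 15.1 TPM. Its controls were spread widely, yet the lowest of them was more than any ASO5 library, and the log2 fold change was -1.63 (limma, adjusted p = 0.000503).

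FCHSD2, an F-BAR protein of clathrin-coated pits with a span of 305574 bp, fell by 1.93 on the log2 scale, and CPNE2, a calcium-dependent copine, fell by 1.53. UBAC2, a membrane protein of the endoplasmic reticulum, fell by 1.33. In each of these 3 genes the ASO3 value was smaller in size, at -0.30, 0.00 and -0.41, and ASO5 minus ASO3 was called in the limma fit (adjusted p = 0.00116, 4.35e-05 and 0.000304). All 9 genes of these paragraphs held throughout.

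**Figure D2:**
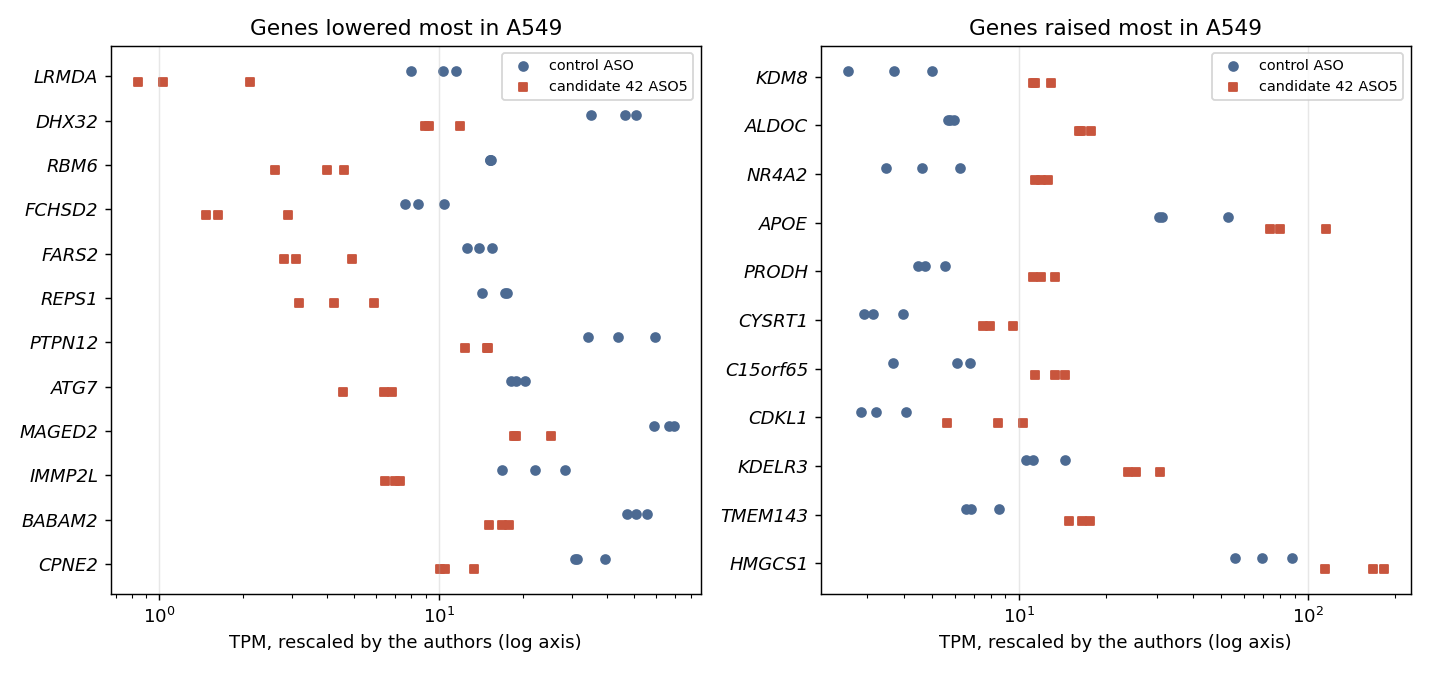
Level in each of the 3 control libraries (blue circles) and the 3 ASO5 libraries (red squares) of A549, in TPM on a log axis, for the genes with the largest fall (left) and the largest rise (right) among called genes whose mean was 5 TPM or more. In every gene shown the ASO5 libraries lie on 1 side of the controls, as the choice of genes required. Genes named as small RNAs were left out of the choice.

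The comparison with the other oligonucleotides was broad. ASO5 minus ASO3 was called for 1570 genes (10.7%), ASO5 minus candidate 240 ASO3 for 2074 (14.1%) and ASO5 minus candidate 240 ASO1 for 555 (3.77%). Against control, 1482 genes (10.1%) were called with ASO3, 2036 (13.8%) with candidate 240 ASO3 and 0 with candidate 240 ASO1 (limma, 267 at an unadjusted p under 0.05). A set of 104 genes was lower with ASO5 than with the control and than with each of the other ASOs, and 23 genes were higher than all of these. The 104 genes had a median log2 fold change of -0.94 with ASO5, beside 0.00 with ASO3, -0.03 with candidate 240 ASO3 and 0.02 with candidate 240 ASO1. These values describe the choice of the set, since all of the contrasts share the ASO5 libraries. Its members had a median genomic span of 50059 bp, 3 of them were 300 kb or longer and 30 were under 30 kb.

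Long genes made up another share of the falls. Genomic span, the distance from a gene's first to last base in the RefSeq table, was available for 90.7% of the tested genes. Of 374 genes over 300 kb, 55 (14.7%) were called lower and 0 higher. Of 3238 genes under 10 kb, 36 (1.11%) were lower and 55 (1.7%) higher. The median span was 62801 bp for the lowered genes, 22443 bp for the raised genes and 27565 bp for all tested genes.

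LRMDA, a melanocyte differentiation gene of 1128545 bp (chromosome 10, 75431624 to 76560168), was at 11.6, 10.4 and 8.004 TPM in the controls and at 2.11, 1.04 and 0.840 TPM with ASO5. The ASO5 libraries were far below, and the log2 fold change of -2.56 ± 0.30 was the largest fall of all called genes (limma, adjusted p = 0.000414). FARS2, the mitochondrial phenylalanyl-tRNA synthetase (521650 bp), fell by 1.85, and IMMP2L, a mitochondrial inner membrane peptidase (899849 bp), fell by 1.60. BABAM2, a subunit of the BRCA1-A and BRISC complexes (450193 bp), fell by 1.60, ATG7, the E1-like enzyme of autophagy (303957 bp), by 1.63, SMYD3, a lysine methyltransferase, by 1.45 and SLIT3, a secreted guidance ligand, by 1.33.

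The long genes differed among themselves in their values with the other oligonucleotides. LRMDA had a log2 fold change of -2.43 with ASO3, -2.69 with candidate 240 ASO3 and 0.18 with candidate 240 ASO1. SMYD3 stood at -1.64, -1.72 and -0.01 in the same order, and IMMP2L at -2.57, -2.14 and -0.23. FARS2 stood at -1.34, -1.13 and -0.01. BABAM2, at -0.66, -0.97 and 0.03, and ATG7, at -0.64, -0.98 and -0.04, were lower with ASO5 than with ASO3 (limma, adjusted p = 0.00206 and 0.00611). FCHSD2 stood at -0.30, -0.26 and 0.09, and these last 3 genes are the long members of the set of 104. Over all 374 genes above 300 kb the median was -0.26 with ASO5, -0.51 with ASO3, -0.60 with candidate 240 ASO3 and 0.07 with candidate 240 ASO1. These 4 comparisons share the control libraries. ASO5 minus candidate 240 ASO1, which does not use the controls, had a median of -0.35 over the same genes.

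**Figure D3:**
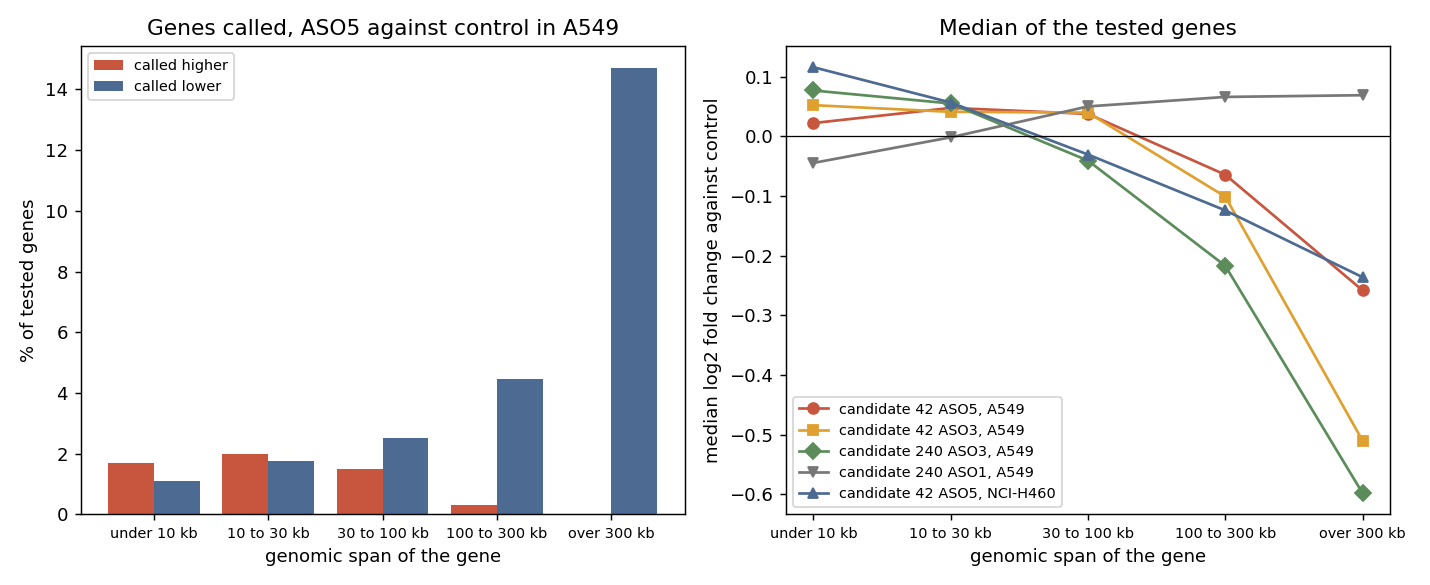
Left, percent of tested genes called higher (red) and lower (blue) with ASO5 against control in A549, by genomic span. Right, median log2 fold change against control of all tested genes in each span class, for 4 ASOs in A549 and for ASO5 in NCI-H460: in the class over 300 kb ASO5 stands at -0.26 in A549 and -0.24 in NCI-H460.

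Among the raised genes, KDM8 showed the largest rise of those whose mean level was 5 TPM or more, with genes named as small RNAs left out. KDM8, a JmjC-domain hydroxylase (chromosome 16, 27203508 to 27221768), went from 5.02, 3.71 and 2.56 TPM to 11.4, 12.98 and 11.2 TPM. Every ASO5 library was above every control, and the log2 fold change was 1.57 ± 0.23 (limma, adjusted p = 0.00231), beside 0.50 with ASO3. TMEM143, a transmembrane protein, went from 8.53, 6.85 and 6.57 TPM to 17.6, 14.9 and 16.5 TPM. Its groups did not overlap, and its log2 fold change was 1.11 (limma, adjusted p = 0.000503), against -0.18 with ASO3 and 0.07 with candidate 240 ASO3.

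ALDOC, the brain isoform of the glycolytic enzyme aldolase, went from 5.80, 5.70 and 5.96 TPM to 16.5, 17.8 and 16.1 TPM, tight within each group and well separated. Its log2 fold change was 1.45 ± 0.15 (limma, adjusted p = 0.000205), beside 0.91 with ASO3 and 1.98 with candidate 240 ASO3. PGF, the placental growth factor of the VEGF family, had 1.86, 1.22 and 1.43 TPM in the controls and 5.97, 6.60 and 5.18 TPM with ASO5. No library of one group fell among the other, and the log2 fold change was 1.68 (limma, adjusted p = 0.000281). It was the only one of 7 VEGF family genes tested to be called, and it stood at 1.86 and 1.63 with ASO3 and candidate 240 ASO3.

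NR4A2, an orphan nuclear receptor of the immediate early group, was at 3.49, 4.62 and 6.26 TPM in the controls and at 11.4, 11.95 and 12.6 TPM with ASO5 (log2 fold change 1.27, limma, adjusted p = 0.00231). It stood at 1.66 with ASO3 and 0.71 with candidate 240 ASO3. NR4A2 was the single member called of 33 immediate early and NR4A genes tested, beside 3.82% of all tested genes. KDELR3, a receptor that retrieves proteins to the endoplasmic reticulum, rose by 1.12 and TSPYL2, a chromatin protein that slows the cell cycle, by 1.04. IFI30, a lysosomal thiol reductase of antigen processing, rose by 0.94 and CYSRT1, a cysteine-rich protein, by 1.20. With ASO3 and candidate 240 ASO3 in order, KDELR3 stood at 0.34 and 0.57 and TSPYL2 at 0.56 and 0.88. IFI30 stood at 0.74 and 0.54 and CYSRT1 at 1.78 and 1.37. These 9 raised genes held throughout. APOE, the lipid carrier apolipoprotein E, went from 52.9, 31.2 and 30.6 TPM to 115, 80.1 and 74.1 TPM, with no overlap (log2 fold change 1.24, limma, adjusted p = 0.0416), but leaving out any single one of 5 of the 6 libraries ended the call. APOE was higher with ASO3 than with ASO5 (2.73 against 1.24, limma, adjusted p = 0.00703).

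Genes of sterol synthesis were shifted upward together. All 20 members of the pathway list were tested, and 9 were called higher and 0 lower, beside 1.42% and 2.4% of all tested genes. All 20 had a log2 fold change above 0, with a median of 0.49 against 0.02 over all tested genes. In 16 of the 20 all ASO5 libraries lay above all controls, where 11.6% of tested genes did. HMGCS1, which makes HMG-CoA from acetyl-CoA units, went from 55.7, 88.2 and 69.5 TPM to 114, 167 and 183 TPM. Its ASO5 libraries were all above the controls, with a log2 fold change of 1.11 ± 0.27 (limma, adjusted p = 0.0402).

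Of the later steps, MVD, which makes isopentenyl diphosphate, went from 65.3, 52.9 and 45.6 TPM to 103, 93.1 and 92.4 TPM, and TM7SF2, a sterol C14 reductase, from 24.3, 24.2 and 20.7 TPM to 46.9, 51.3 and 41.6 TPM. Both were clear of their controls, with log2 fold changes of 0.82 (limma, adjusted p = 0.0077) and 1.00 (adjusted p = 0.000768). IDI1 (0.69), ACAT2 (0.57), HSD17B7 (0.49), FDFT1 (0.48) and SQLE (0.48) were also called.

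The strength of these calls differed. TM7SF2 held throughout, and MVD and ACAT2 were called without any 1 library, whereas HMGCS1 lost the call when ASO5 replicate 4 or 5 or control replicate 3 or 5 was left out. The number of called members was 3 without ASO5 replicate 4, 4 without ASO5 replicate 5, 5 without control replicate 5, 6 without control replicate 3 and 2 in the 6 libraries alone. It was 15 with all libraries numbered 3 left out. Of the same 20 genes, 1 was called higher with ASO3 (median 0.23) and 11 with candidate 240 ASO3 (median 0.52), beside 3.43% and 6% of all tested genes. The ASO5 minus ASO3 difference was called for 3, all higher with ASO5. Of all tested genes, 10.7% were called in that difference and 6.02% were higher. TM7SF2 was among the 3 (limma, adjusted p = 0.000852).

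Since these members moved together, the promoters of 5 called lipid genes are shown, from 250 bases before to 50 bases after the RefSeq start (GRCh38.p14). The motifs searched, on both strands, were CCAAT, bound by NF-Y, and CACCCCAC, the core of the sterol regulatory element, and the second occurs in none of these 5. HMGCS1 lies at chr5:43313363-43313662 on the minus strand, MVD at chr16:88663042-88663341 on the minus strand, TM7SF2 at chr11:65111622-65111921 on the plus strand, IDI1 at chr10:1056655-1056954 on the minus strand and ACSS2 at chr20:34874739-34875038 on the plus strand. Capitals mark CCAAT or its reverse complement, 5′ to 3′ in the direction of the gene.
HMGCS1: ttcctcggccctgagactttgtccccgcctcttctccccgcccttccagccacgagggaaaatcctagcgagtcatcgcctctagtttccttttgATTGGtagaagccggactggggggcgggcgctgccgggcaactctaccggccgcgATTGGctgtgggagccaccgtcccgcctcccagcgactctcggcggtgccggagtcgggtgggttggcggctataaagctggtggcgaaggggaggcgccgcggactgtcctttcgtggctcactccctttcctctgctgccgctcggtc
MVD: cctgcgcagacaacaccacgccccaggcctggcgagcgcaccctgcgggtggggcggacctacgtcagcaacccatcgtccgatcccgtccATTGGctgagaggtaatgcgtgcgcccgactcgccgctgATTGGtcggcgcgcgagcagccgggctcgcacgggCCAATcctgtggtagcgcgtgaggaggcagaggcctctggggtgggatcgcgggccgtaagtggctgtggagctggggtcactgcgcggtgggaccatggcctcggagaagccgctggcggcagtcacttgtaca
TM7SF2: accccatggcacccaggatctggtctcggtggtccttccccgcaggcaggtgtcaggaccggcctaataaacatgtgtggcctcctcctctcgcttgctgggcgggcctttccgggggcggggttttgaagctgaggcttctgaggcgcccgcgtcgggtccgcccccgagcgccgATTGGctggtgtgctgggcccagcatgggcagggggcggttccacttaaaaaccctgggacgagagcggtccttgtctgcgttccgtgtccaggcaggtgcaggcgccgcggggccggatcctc
IDI1: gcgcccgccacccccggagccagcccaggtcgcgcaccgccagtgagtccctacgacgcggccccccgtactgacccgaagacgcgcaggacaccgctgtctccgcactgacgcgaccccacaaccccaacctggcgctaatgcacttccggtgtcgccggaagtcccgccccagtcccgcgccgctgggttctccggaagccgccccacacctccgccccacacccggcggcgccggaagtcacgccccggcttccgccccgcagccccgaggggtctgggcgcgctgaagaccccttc
ACSS2: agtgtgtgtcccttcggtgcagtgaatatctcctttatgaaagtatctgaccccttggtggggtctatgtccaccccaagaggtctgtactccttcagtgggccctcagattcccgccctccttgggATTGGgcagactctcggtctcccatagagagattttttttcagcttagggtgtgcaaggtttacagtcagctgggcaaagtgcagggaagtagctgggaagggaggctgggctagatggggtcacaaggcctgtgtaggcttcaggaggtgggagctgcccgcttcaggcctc

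The promoter of MVD held CCAAT 3 times, that of HMGCS1 2 times, those of TM7SF2 and ACSS2 once each and that of IDI1 not at all. In the authors' coordinates IDI1 starts at 1049170 and ACSS2 at 34872146, both outside the stretches shown. Their counts therefore hold for the RefSeq start only. CCAAT was present in 12 of the 15 sterol synthesis promoters that the table holds (80.0%), in 7 of 13 fatty acid promoters (53.8%) and in 35.7% of all 27305 promoters of the same length. CACCCCAC was found in 0 of the 15 sterol promoters and in 2.72% of all promoters. A match is a run of letters and not a measured site, and a missing match says nothing about binding.

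Fatty acid synthesis moved with a smaller share of its genes. Of 14 members tested, 4 were called higher and 0 lower, beside 1.42% and 2.4% of all tested genes. The median was 0.32. ACSS2, which makes acetyl-CoA from acetate, was at 24.0, 24.1 and 21.9 TPM in the controls and at 44.6, 49.4 and 46.0 TPM with ASO5. Both groups were tight and well apart, with a log2 fold change of 0.98 ± 0.09 (limma, adjusted p = 8.44e-05), and the call held throughout. FASN, the fatty acid synthase, rose by 0.86, FADS2, the delta-6 desaturase, by 0.56 and ACLY, which makes cytosolic acetyl-CoA from citrate, by 0.41, of which only FADS2 was called without any 1 library. With ASO3 and candidate 240 ASO3 in order, ACSS2 stood at 0.77 and 0.49 and FASN at 0.98 and 1.05. FADS2 stood at 0.36 and 0.40 and ACLY at 0.23 and 0.33.

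**Figure D4:**
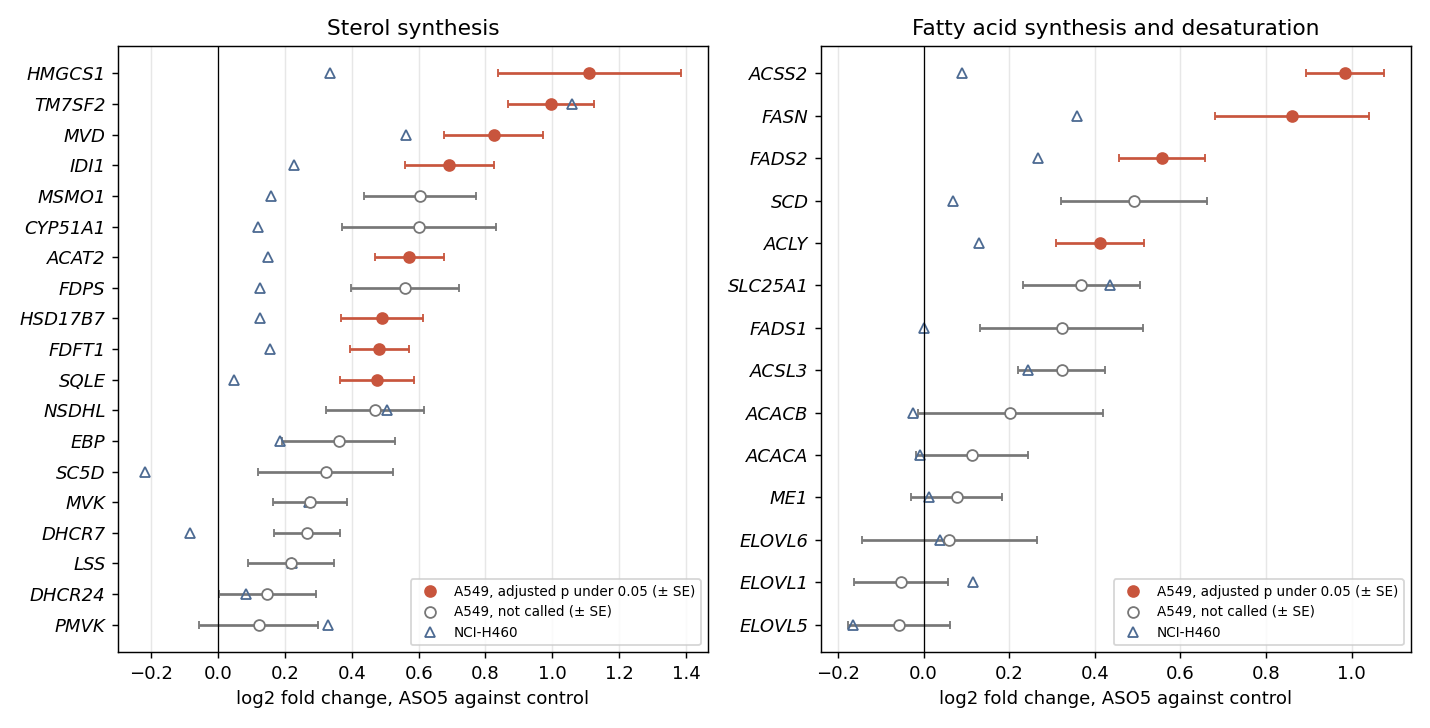
Log2 fold change of ASO5 against control for genes of sterol synthesis (left; 1 tested gene of the list is not shown) and all 14 tested genes of fatty acid synthesis (right). Circles give A549 with the standard error, filled red where called, and triangles give NCI-H460; in A549 all sterol genes shown lie above 0.

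Sterol uptake and export did not move as a block. Of 16 genes of SREBP regulation and uptake, 1 was called higher and 0 lower, with a median of 0.06, and leaving out any single library ended that call. Of 12 targets of the liver X receptors and lipid export genes, APOE was higher and 2 were lower. ABCG1, which exports cholesterol to HDL, went from 8.77, 9.76 and 10.2 TPM to 4.604, 4.97 and 4.41 TPM, below every control (log2 fold change -0.97, limma, adjusted p = 0.00303), and it stood at 0.24 with ASO3. LPCAT3, a lysophospholipid acyltransferase, fell by 0.63. Its neighbour C1S, which overlaps it on the opposite strand by 30219 bp, was also called (log2 fold change -0.61, limma, adjusted p = 0.0275).

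The p53 targets were shifted upward. Of 30 tested, 24 were above 0 with a median of 0.26. Among them 3 were called higher and 0 lower, beside 1.42% and 2.4% of all tested genes. With ASO3, 4 were higher and 1 lower (median 0.18), beside 3.43% and 6.63% of all tested genes. With candidate 240 ASO3, 11 were higher and 0 lower (median 0.38), beside 6% and 7.82%. CDKN1A, the p21 inhibitor of cyclin-dependent kinases, was at 164, 132 and 136 TPM in the controls and at 225, 236 and 216 TPM with ASO5. No ASO5 library overlapped a control, and the log2 fold change was 0.65 ± 0.10 (limma, adjusted p = 0.00363), beside 0.29 with ASO3 and 0.66 with candidate 240 ASO3. BTG2, an antiproliferative factor, rose by 0.64 and CCNG1, a p53-induced cyclin, by 0.49, and neither call survived leaving out any single one of 5 of the 6 libraries. Of 28 BCL2 family and death receptor genes, TNFRSF10A, a receptor for the death ligand TRAIL, was the only call, from 19.8, 20.6 and 19.3 TPM to 30.6, 29.2 and 27.8 TPM (log2 fold change 0.54, limma, adjusted p = 0.00856). That is 1 gene of 28, near the 3.82% called of all tested genes.

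Cell cycle genes showed small negative medians and 1 call. The 36 genes of G1/S and replication had a median of -0.14, and POLA1, the catalytic subunit of DNA polymerase alpha and a gene of 303069 bp, was the only one called (log2 fold change -0.57, limma, adjusted p = 0.0193). The call was lost without any 1 of 5 libraries. The 36 genes of G2/M and mitosis had a median of -0.09 and 0 calls in limma (5 at an unadjusted p under 0.05, all lower), and 2 were called lower without control replicate 3.

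FN1, fibronectin, went from 64.8, 91.1 and 83.8 TPM to 36.2, 46.4 and 42.6 TPM, each ASO5 library below each control, with a log2 fold change of -0.92 ± 0.16 (limma, adjusted p = 0.00685). FN1 stood at -0.84 with ASO3 and -0.57 with candidate 240 ASO3. CDH2, N-cadherin, fell by 0.84, beside -0.56 and -0.69 in the same order. Leaving out any single one of 3 of the 6 libraries ended the CDH2 call. FN1 and CDH2 were the 2 calls among 25 genes of epithelial to mesenchymal transition. CLDN2, a pore-forming claudin of tight junctions, went from 25.7, 32.7 and 27.1 TPM to 10.2, 11.7 and 12.4 TPM, with wide separation (log2 fold change -1.27, limma, adjusted p = 0.000109). CLDN2 stood at -0.86 with ASO3 and -0.96 with candidate 240 ASO3. MORC4 overlaps CLDN2 on the opposite strand and was called lower too (log2 fold change -0.48, limma, adjusted p = 0.00856).

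Of 29 genes of the TGF-beta pathway, BAMBI, a decoy receptor, fell by 0.83 and ACVR1, a type I BMP receptor, by 0.86. BAMBI stood at -0.64 with ASO3 and -0.30 with candidate 240 ASO3, and ACVR1 at 0.04 and -0.86. IGFBP3, a binding protein of insulin-like growth factors and the only call among 27 YAP and TEAD targets, was at 83.1, 86.3 and 74.1 TPM in the controls and at 44.4, 44.2 and 44.4 TPM with ASO5. The ASO5 libraries were nearly equal and all below control (log2 fold change -0.86, limma, adjusted p = 0.00143). IGFBP3 stood at -0.19 with ASO3 and -1.13 with candidate 240 ASO3. FN1, CLDN2, BAMBI and IGFBP3 held throughout. Of 29 basement membrane and matrix genes, 1 was called higher and 1 lower, and neither call held through leaving out each library in turn. The lowered gene was COL4A6, a type IV collagen chain, which fell by 0.50.

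The matrix and endoplasmic reticulum lists separated ASO5 from ASO3. For both lists, the shares of all tested genes were 6.63% lower with ASO3 and 6.02% higher in ASO5 minus ASO3. With ASO3, 15 of the 29 basement membrane and matrix genes were lower (median -0.59), and with ASO5 the median was -0.02. ASO5 minus ASO3 was called for 17 of them, all higher with ASO5. COL18A1, the collagen that yields endostatin, is not in that list. It stood at 128, 116 and 105 TPM in the controls and at 89.9, 82.1 and 78.6 TPM with ASO5, a modest fall (log2 fold change -0.47, limma, adjusted p = 0.0280). Leaving out any single one of 4 of the 6 libraries ended that call. The ASO3 value of COL18A1 was -1.93, and the difference between the ASOs was called (limma, adjusted p = 2.93e-06). Of 25 chaperones and folding factors of the unfolded protein response, 0 were called with ASO5 in limma (median -0.11, 7 at an unadjusted p under 0.05), and 11 were lower with ASO3 (median -0.45), and ASO5 minus ASO3 was called higher for 11.

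Metabolic and stress lists are to be read beside 1.42% higher and 2.4% lower of all tested genes. Of 31 hypoxia and glycolysis genes, 3 were higher and 0 lower: ALDOC, PFKFB4, which makes fructose 2,6-bisphosphate (0.78), and ENO2, the neuronal enolase (0.47). Without ASO5 replicate 4 the count was 1. Of 34 targets of NRF2, the regulator of the oxidant response that is constitutively active in A549, 3 were lower and 0 higher. AKR1C1 and AKR1B10, aldo-keto reductases at high level in this line, went from 1726, 1229 and 1043 TPM to 921, 769 and 804 TPM and from 3874, 3235 and 2716 TPM to 2346, 2157 and 2306 TPM. In both, the ASO5 libraries lay below the controls (log2 fold changes -0.65 and -0.51, limma, adjusted p = 0.0427 and 0.0423). Neither call held under another scaling by medians of ratios, and each was lost without any 1 of 5 libraries. TRIM16L fell by 0.41, and its call was lost without ASO5 replicate 4 and with scaling to a common total.

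Of 26 interferon-stimulated genes, OAS1, a sensor of double-stranded RNA, went from 40.4, 48.2 and 41.4 TPM to 69.1, 81.5 and 94.3 TPM. It held throughout, with no overlap (log2 fold change 0.90, limma, adjusted p = 0.00319). OAS1 stood at 1.10 with ASO3 and 0.74 with candidate 240 ASO3. USP18, which removes ISG15, fell by 0.53, and it stood at 0.26 with ASO3 (ASO5 minus ASO3, limma, adjusted p = 0.000341). NFKB2 was the 1 call among 20 NF-kappa-B targets, beside 3.82% of all tested genes. It stood at 0.90, and the call was lost without any 1 of 5 libraries. The limma fit gave 0 calls among 26 genes of the integrated stress response, 23 heat shock genes, 77 cytosolic ribosomal proteins, 59 nuclear genes of oxidative phosphorylation, 32 proteasome subunits and 13 genes of the mitochondrial genome, with medians of 0.18, 0.23, 0.06, 0.07, 0.05 and -0.12. At an unadjusted p under 0.05 these lists held 1, 5, 1, 1, 0 and 2 genes in the same order. The first 0 rested on 1 library, since 8 genes of the integrated stress response were called higher without control replicate 5, and 1 heat shock gene was called higher without control replicate 4.

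The response to ASO5 in NCI-H460, with its own controls, was in the same direction for most genes called in A549. Of 13774 genes tested there, 70 (0.508%) were called, 25 higher and 45 lower. The 563 A549 calls include 482 genes tested in NCI-H460, and 428 of them (88.8%) had the same sign, against 61.9% of the 12760 genes tested in both lines. The 301 lowered genes had medians of -0.76 in A549 and -0.34 in NCI-H460, and the 181 raised genes had medians of 0.62 and 0.19. These genes were chosen by their A549 call, which enlarges the A549 medians, so the sizes are not compared. Called in both lines were 36 genes (8 higher, 28 lower), all with the same sign, which is 6.39% of the A549 calls and 57.1% of the 63 NCI-H460 calls tested in A549. With 2 libraries per group in NCI-H460, leaving out any 1 of its 4 libraries ended all calls there (0 called in limma, with 1165 to 1586 genes at an unadjusted p under 0.05).

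The leading genes that were lower with ASO5 than with ASO3 in A549 were also lower than control in this line. REPS1 was at 31.5 and 33.1 TPM in the NCI-H460 controls and at 14.8 and 15.2 TPM with ASO5. MAGED2 was at 55.1 and 51.3 TPM against 27.0 and 29.4 TPM, and DHX32 at 27.2 and 29.2 TPM against 13.4 and 14.1 TPM. In all of these the pairs of libraries were close together and far from the other group, with log2 fold changes of -1.08, -0.91 and -1.01 (limma, adjusted p = 0.00933, 0.00933 and 0.0136). RBM6 stood at -1.31, FCHSD2 at -1.31, TSEN15 at -0.99 and PTPN12 at -0.93, all called. Of the 104 genes lower with ASO5 than with control and every other ASO in A549, 94 were tested in NCI-H460, 91 had a log2 fold change below 0 there and 20 were called, with a median of -0.49 against 0.01 over all tested genes.

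KDM8 rose in NCI-H460 from 1.72 and 1.61 TPM to 6.20 and 6.74 TPM, with a log2 fold change of 1.69 (limma, adjusted p = 0.00933) beside 1.57 in A549. PGF rose from 0.621 and 0.523 TPM to 2.75 and 3.72 TPM (1.79, limma, adjusted p = 0.0109), and CDKN1A stood at 0.62 (limma, adjusted p = 0.019). Each of these pairs was separated from its controls. The sterol synthesis genes had a median of 0.16 and 0 calls in NCI-H460 (limma, 5 of 20 at an unadjusted p under 0.05), and TM7SF2 was the highest of them at 1.06 (adjusted p = 0.0655). As a test of the difference itself, the A549 response minus the NCI-H460 response was called for 5 of 14769 genes (0.0339%), with ACSS2 among them, so for the other sterol and fatty acid genes a difference between the lines was not shown.

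**Figure D5:**
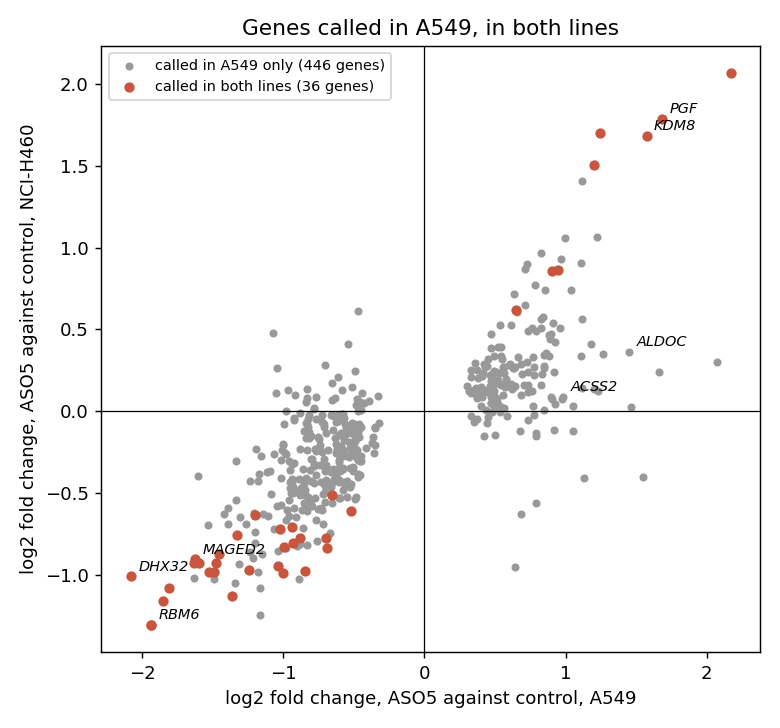
Log2 fold change of ASO5 against control in A549 (x axis) and NCI-H460 (y axis) for the 482 genes called in A549 and tested in both lines, with the 36 genes called in both in red. Pearson's r across these genes is 0.777, against 0.331 over all 12760 genes tested in both lines; genes are not independent replicates, and no p is given.

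The authors' deposited table for ASO5 against control in A549 lists 18556 genes, of which 1031 have a q-value under 0.05, 478 higher and 553 lower. Of the 563 genes called here, 481 (85.4%) also had a q-value under 0.05 in the authors' deposited table, all with the same sign. Of the 983 genes with such a q-value that were tested here, 48.9% were called. For AC107959.3 the authors' deposited table gives a log2 value of -1.15 with a q-value of 0.174.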

How the data were processed

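RNA was sequenced from 25 libraries of A549 and NCI-H460 cells, and the 15 A549 and 10 NCI-H460 libraries were analysed. Per the submitters' processing notes, kallisto and sleuth 0.30 were used with hg38; the annotation release and any use of strand are not stated in the sources used here. The authors deposited a signal per gene name and library, in TPM, normalised for transcript length and rescaled between libraries, for 59427 names. Their table for ASO5 holds, per the file headers, a log2 fold change, a q-value and mean signals, which are the authors' own values.

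Fold changes were computed on log2(TPM + 0.5) for genes averaging 1 TPM or more within a line. limma 3.58.1 (R 4.3.3) fitted a mean per group to all 5 groups of a line (lmFit, eBayes with a trend; residual degrees of freedom 10 for A549, 5 for NCI-H460), so all groups share the estimate of the spread; the difference between lines was an interaction over both (15 degrees of freedom). Tests were two-sided, p-values were adjusted over all tested genes by Benjamini-Hochberg, and calls required an adjusted p under 0.05. The procedure was tested on simulated data. ± after a fold change is its standard error and after a mean the SD.

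The members and gene lists were chosen with earlier results of these data known. Genes were named by rule: the target; of genes averaging 5 TPM or more, the 12 largest called changes and the 6 smallest adjusted p-values in each direction; called members of each list (at most 8); the leading genes of each difference; and at most 8 called in both lines. Names that start with MIR, SNOR, SCARNA, RNU, RN7 or RNA5 were left out of these rankings. SQLE and MORC4, C1S and BCCIP, which overlap named genes, lie outside the rule. Of 79 named called genes, 30 overlap a gene on the opposite strand. Other alternatives were scaling, pseudocount, filter, moderation, a replicate block, the compared groups alone and leaving out libraries. Some genes that the rule names are not reported here. Depth is unknown.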

Additional observations from a re-analysis of the deposited data

Results flagged for a closer look

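The response to ASO5 differed between the lines for 5 genes, tested as A549 minus NCI-H460 in 1 limma fit of both lines. ACSS2, which makes acetyl-CoA from acetate, rose by 0.98 in A549 and stood at 0.09 in NCI-H460, a difference of 0.90 ± 0.15 on the log2 scale (limma, adjusted p = 0.0372). CLDN2, a tight junction claudin, fell by 1.27 in A549, and in NCI-H460 its mean was 0.00609 TPM in the controls and 0.0348 TPM with ASO5, and the difference was -1.35 (limma, adjusted p = 0.0116). With the gene near 0 in both NCI-H460 groups a fall could not be measured there, and this value restates the fall in A549. COL18A1, a basement membrane collagen, had -0.47 in A549, where its control mean was 116 TPM, and 0.62 in NCI-H460, where it was 3.00 TPM, a difference of -1.09 (limma, adjusted p = 0.013). RAB3B, a GTPase of regulated secretion that lies outside the rule for named genes, had 0.68 in A549 and -0.63 in NCI-H460, a difference of 1.31 (limma, adjusted p = 0.0012). AC044860.1, a transcribed pseudogene whose reads may be shared with near-identical copies, had 0.64 and -0.95, a difference of 1.59 (limma, adjusted p = 0.0345). The cause of these differences was not tested.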

How the results depend on the processing

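Of the 79 named genes called in A549, 41 kept the call without any 1 of the 6 libraries, 34 kept it under each of the other settings, and 0 changed sign under any. The 563 calls became 507 with median-of-ratios scaling, 523 with a common total, 561 and 568 with pseudocounts of 0.1 and 1, 383 with no filter and 547 with robust moderation. With the 6 libraries alone there were 119, of which 115 were shared with the 563 and 22.7% were higher, against 37.1%. ASO5 minus candidate 240 ASO3 alone gave 969. With no filter, ASO5 minus candidate 240 ASO1 gave 349 and the line difference 87. Scaling to a common total gave 42 in NCI-H460 and 1 for the line difference. AC107959.3 stayed uncalled in all settings, at -1.29 to -0.78.

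Leaving out 1 compared library gave 207 to 449 calls against control (838 without candidate 240 ASO3 replicate 3, chosen after seeing the data), 908 to 1247 for ASO5 minus ASO3, 1267 to 2056 against candidate 240 ASO3, 195 to 309 against candidate 240 ASO1, 1 to 7 for the line difference and 0 in NCI-H460, where the lone library left was assumed to vary like the other groups. Leaving out all A549 libraries numbered 3, also chosen after seeing the data, gave 1742, 3285, 3572 and 1694 in the order of the 4 A549 comparisons.

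The groups share replicate numbers. Deviations of same-numbered ASO5 and control libraries correlated at 0.321, 0.0213 and 0.212. ASO5 replicate 3 correlated at -0.189 and -0.231 with control replicates 4 and 5, so number 3 went together. ASO5 replicate 4 correlated best with control replicate 5, and the numbers were not taken as pairs in the main fit. That fit therefore leaves what set the libraries numbered 3 apart in the spread. With the replicate number as a block, calls rose to 1533 (all 563 among them), 3152, 3864 and 1585. The cause of these shifts was not tested. With gene spans from the authors' coordinates, added after seeing the data, 55 of 419 genes over 300 kb (13.1%) were lower and 0 higher.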

Other observations

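Within 300 kb of AC107959.3 on chromosome 8, 13 other genes were tested in A549, and TNFRSF10A was the only one called with ASO5. TNFRSF10B, the other TRAIL death receptor and the nearest protein-coding neighbour, was at 91.0 TPM in the controls and 103.5 TPM with ASO5 (log2 fold change 0.19, limma, adjusted p = 0.53), and LOXL2, a lysyl oxidase, stood at -0.02 (adjusted p = 0.976). CHMP7, an ESCRT-III subunit, had all ASO5 libraries above control with no call (0.29, limma, adjusted p = 0.144). TNFRSF10A and the uncalled AC107959.1, TNFRSF10A-AS1 and AC100861.1 had them all above too, where 11.6% of all tested genes did. No tested neighbour had them all below.

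By annotated class, calls were spread over protein-coding and noncoding genes. Of 12037 protein-coding genes tested, 177 were higher and 319 lower (4.12%). Of 510 lincRNA genes, 9 were higher and 5 lower (2.75%), and of 685 antisense genes, 6 were higher and 9 lower (2.19%). CEND1, a neuronal cell cycle exit protein, lies outside the rule for named genes and was chosen after its values were seen. It went from a mean of 1.24 TPM to 7.24 TPM in A549 (log2 fold change 2.17, limma, adjusted p = 8.44e-05) and stood at 2.07 in NCI-H460 (adjusted p = 0.00933), the largest rise of the 36 genes called in both lines.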
